A study of Homo sapiens with 12 samples.

Results

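The genes described here are the replication-dependent histone genes of 2 human liver cancer cell lines, taken as every row with an Ensembl identifier whose symbol starts with HIST1H, HIST2H, HIST3H or HIST4H, without the symbols that carry the pseudogene suffix PS. The rule gave 68 of 27249 Ensembl genes, of which 6 belong to the H1 class, 15 to H2A, 20 to H2B, 12 to H3 and 15 to H4. It uses names and no measured value. HIST2H2BA and HIST3H2BA are annotated as pseudogenes although their symbols lack the suffix, and HIST2H2BC has no gene model in the annotation used here. On the GRCh38 build, 51 members lie on chromosome 6 between positions 25726132 and 27893106, 16 lie on chromosome 1 and HIST4H4 lies on chromosome 12.

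Histones H2A, H2B, H3 and H4 form the core around which DNA is wrapped, and H1 binds the DNA that links neighbouring cores. The replication-dependent genes supply the bulk of these proteins while DNA is copied in S phase, and most have many near-identical copies in clusters, have no introns and give mRNAs that end in a conserved stem-loop in place of a poly(A) tail. The stem-loop is bound by SLBP, which guides the processing of the 3′ end, export, translation and decay of the mRNA, while NPAT activates the histone clusters. Replication-independent variants such as H2AFZ, H2AFX, H3F3A and H3F3B come from genes outside the rule and give mRNAs with poly(A) tails, H2AFX being able to give both forms.

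The RNA came from Huh7 and HepG2, 2 established liver cancer lines that the study treats as hepatocellular carcinoma. Each was taken as sorafenib-resistant and as parental cells, and 3 samples were sequenced for each of the 4 groups. Per the labels every sample has the genotype WT, the resistant cells survived repeated exposure to sorafenib, a multikinase inhibitor, over 8 months in rising amounts from a first dose of 10 μmol, and the parental cells received no treatment. Each line gave 1 resistant population, which limits it as a model of resistance, and no label gives separate cultures for the 3 samples of a group, so the p-values measure only the spread between these samples, which may be technical. In bulk RNA, fewer cells in S phase and less histone RNA per cell cannot be told apart. Values are called FPKM, fragments scaled by transcript length and sequencing depth, which puts genes on 1 scale per length. They come from 12290129 to 19285978 reads per sample, and the lowest depths are those of the 3 parental HepG2 samples. Hepatocyte markers were present in every group: 10 of 10 were tested in both lines, and albumin (ALB) averaged 695 to 1615 FPKM over the groups. Of 9 measured markers of other cell types, the highest group mean was 5.32 FPKM, for LYZ in resistant HepG2 cells, and KRT5 averaged at most 0.00591 FPKM.

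The stem-loops are shown first because they define these mRNAs. A stem of 6 paired bases that starts with GG and ends with CC, around a loop of 4 bases that starts with T, was searched on the transcript strand in up to 100 bases after the stop codon. It was found in 24 of the 29 members whose model holds 100 such bases (82.8%), against 11 of 18247 other coding genes (0.0603%). The others with 100 such bases, HIST1H2AC, HIST1H2AG, HIST1H2BD, HIST1H2BJ and HIST2H2BF, had no match in the model used. In 30 members the model stops at the stop codon and 3, HIST2H2BA, HIST2H2BC and HIST3H2BA, have no coding model, so no such sequence was searched in them. The 27 stem-loops found are of 5 kinds, shown here as DNA from GENCODE transcripts with the stem and loop in capitals. They differ within the stem and the loop.
HIST2H2BE: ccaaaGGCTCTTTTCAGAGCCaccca
HIST1H2BC: ccaaaGGCTCTTTTAAGAGCCaccca
HIST1H4H: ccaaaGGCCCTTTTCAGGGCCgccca
HIST1H4I: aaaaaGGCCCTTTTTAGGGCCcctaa
HIST1H3E: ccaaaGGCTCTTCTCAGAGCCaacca

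Promoters, taken as 250 bases before to 50 bases after the start, were matched for 60 members in RefSeq on GRCh38.p14 and searched on both strands for 4 motifs. These were the octamer ATTTGCAT known from H2B promoters, the letters CCAAT of the box that NF-Y binds, the TATA box written TATAAA, and the H1 box written AAACACA. The octamer was present in 10 of 14 H2A and 13 of 17 H2B promoters, in 0 of 6 H1, 0 of 10 H3 and 0 of 13 H4 promoters, and in 1.72% of the 27245 other promoters. AAACACA was present in 6 of 6 H1 promoters, in 1 of 14 H2A, 2 of 10 H3 and no H2B or H4 promoter, against 5.74% of the others. CCAAT was present in every matched H1, H2A, H2B and H3 promoter but in 3 of 13 of H4, against 35.6% of the others. TATAAA was present in 40 of the 60, against 11.8%. These are matches of letters only, and matches of different motifs overlapped in 0 of the 60 promoters. The promoters of 6 members are shown, with all matches on either strand in capitals. HIST1H1A is the H1 gene with the largest difference between the parental lines, HIST1H3B the most abundant member, HIST1H2BM a member called in both lines, HIST1H4L the one with the largest change, and HIST2H2BF and HIST2H3D, neighbours on chromosome 1, are called in HepG2 and not in Huh7.
HIST1H1A (chr6:26017738-26018037, minus strand): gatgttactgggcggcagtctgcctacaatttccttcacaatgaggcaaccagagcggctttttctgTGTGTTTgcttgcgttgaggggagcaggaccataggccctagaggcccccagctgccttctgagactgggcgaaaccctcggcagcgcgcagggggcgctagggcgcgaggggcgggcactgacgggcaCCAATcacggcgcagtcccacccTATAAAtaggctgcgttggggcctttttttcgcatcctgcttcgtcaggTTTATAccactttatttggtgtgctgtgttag
HIST1H2BM (chr6:27814772-27815071, plus strand): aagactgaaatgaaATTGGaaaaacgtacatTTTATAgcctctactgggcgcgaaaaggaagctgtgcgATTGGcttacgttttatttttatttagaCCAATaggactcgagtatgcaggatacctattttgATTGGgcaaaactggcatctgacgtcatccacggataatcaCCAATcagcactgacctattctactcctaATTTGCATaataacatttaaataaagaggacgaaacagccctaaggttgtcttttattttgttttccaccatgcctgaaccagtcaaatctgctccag
HIST1H3B (chr6:26032050-26032349, minus strand): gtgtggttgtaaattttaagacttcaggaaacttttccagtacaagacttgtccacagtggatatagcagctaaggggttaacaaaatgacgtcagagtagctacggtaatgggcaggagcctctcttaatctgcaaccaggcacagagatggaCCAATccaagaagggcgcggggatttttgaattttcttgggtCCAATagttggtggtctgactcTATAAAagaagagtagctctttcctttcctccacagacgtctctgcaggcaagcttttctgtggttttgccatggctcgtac
HIST1H4L (chr6:27873485-27873784, minus strand): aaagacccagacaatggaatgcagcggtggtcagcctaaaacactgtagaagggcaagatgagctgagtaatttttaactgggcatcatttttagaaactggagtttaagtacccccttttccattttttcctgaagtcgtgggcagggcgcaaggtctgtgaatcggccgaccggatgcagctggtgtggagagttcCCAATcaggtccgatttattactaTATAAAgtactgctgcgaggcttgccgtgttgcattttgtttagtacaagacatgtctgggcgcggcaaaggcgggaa
HIST2H2BF (chr1:149812321-149812620, minus strand): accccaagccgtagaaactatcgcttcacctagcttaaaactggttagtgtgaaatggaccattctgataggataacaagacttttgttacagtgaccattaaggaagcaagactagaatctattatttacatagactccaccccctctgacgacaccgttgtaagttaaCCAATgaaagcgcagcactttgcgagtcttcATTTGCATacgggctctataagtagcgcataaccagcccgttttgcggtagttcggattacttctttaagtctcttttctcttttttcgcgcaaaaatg
HIST2H3D (chr1:149813644-149813943, minus strand): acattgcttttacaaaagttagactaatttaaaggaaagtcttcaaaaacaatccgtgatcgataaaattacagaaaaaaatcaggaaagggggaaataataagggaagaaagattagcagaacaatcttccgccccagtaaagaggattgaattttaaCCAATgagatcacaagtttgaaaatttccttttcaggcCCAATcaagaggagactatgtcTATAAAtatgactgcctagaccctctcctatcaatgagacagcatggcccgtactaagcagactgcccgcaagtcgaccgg

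Histone mRNAs were among the most abundant RNAs of these libraries. HIST1H3B, one of the genes for the canonical H3.1 protein, had the highest mean FPKM of all Ensembl genes in resistant Huh7 cells and ranked 3 in parental Huh7, 4 in resistant HepG2 and 14 in parental HepG2 cells. Among the 10 genes with the highest mean FPKM were 4 members in resistant Huh7, 2 in parental Huh7, 2 in resistant HepG2 and 1 in parental HepG2 cells. Summed over the 68 members, the level was 15958, 12299.8 and 16570.3 FPKM in resistant Huh7 samples 1 to 3 and 7913, 5689 and 5616 FPKM in the parental ones. In HepG2 it was 4350.2, 8103 and 6784 FPKM in the resistant and 3758, 7461 and 6309 FPKM in the parental samples. The sums of the 2 Huh7 groups did not overlap and their means had a ratio of 2.33, whereas those of HepG2 overlapped, with a ratio of 1.10. Members took 0.886% of the reads of resistant and 0.404% of those of parental Huh7 cells on average, and 0.390% and 0.331% in HepG2.

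By class, the summed level of H4 had the highest ratio in Huh7, 2069 ± 283 against 699 ± 117 FPKM (SD, n = 3), a ratio of 2.96. The ratios were 2.48 for H1, 2.16 for H2A, 2.22 for H2B and 2.17 for H3, and in each class the 3 resistant samples were above the 3 parental ones. In HepG2 the same ratios were 0.826 for H1, 1.52 for H2A, 1.54 for H2B, 1.28 for H3 and 0.813 for H4, and the groups overlapped in all 5 classes. The sum over the list is a description with no test.

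**Figure D1:**
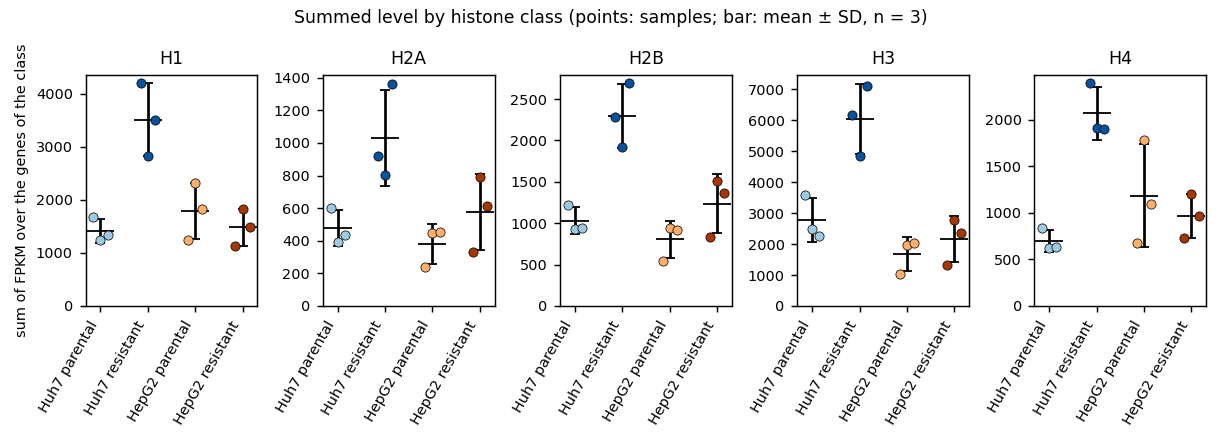
Sum of FPKM over the genes of each histone class (y axis, its own scale in each panel, from 0) in the 12 samples by group (x axis); points are samples and bars are the mean ± SD of 3 samples. Resistant Huh7 samples lie above the parental ones in all 5 classes, and the HepG2 groups overlap in each.

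A member was tested in a line where at least 3 of its 6 samples held at least 1 FPKM, and was called at a limma adjusted p under 0.05 with a log2 fold change beyond 1 on the log2(FPKM + 1) scale, which understates the change of low genes. In Huh7, 57 of 68 members were tested and in HepG2 45, all of them among the 57. The 11 tested in neither line include the testis-type genes HIST1H1T, HIST1H2AA and HIST1H2BA, along with HIST1H2AD, HIST1H2BH, HIST2H2BA, HIST3H2BA, HIST1H3E, HIST1H3G, HIST1H4F and HIST1H4G. The filter and the calls use the same samples, so the counts cover the tested members and not the whole list.

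In resistant Huh7 cells 32 of the 57 tested members were called higher and 0 lower, where 8.59% of all 12554 genes tested were called higher and 14% lower. Of the 5 with a negative change, 2, HIST1H2BD and HIST1H3I, had an unadjusted p under 0.05, and limma-voom on the reads called 1, HIST1H3I, lower. Of the 57, 52 had a positive log2 fold change, against 48.2% of all genes, 44 an adjusted p under 0.05, against 70.1%, and in 43 the 3 resistant samples were all above the 3 parental ones, against 35.2% of all genes. The median log2 fold change of the tested members was 1.15, against -0.04 over all genes tested. By class the calls were 4 of 5 for H1, 5 of 13 for H2A, 10 of 16 for H2B, 6 of 10 for H3 and 7 of 13 for H4. After a trend with GC content was removed from each library, 21 were called higher and 1, HIST1H3I, lower. Changes in Huh7 moved with GC content over all genes, as given with the GC values.

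In resistant HepG2 cells 9 of the 45 tested members were called higher and 0 lower, where 3.29% of all 11762 genes tested were called higher and 2.98% lower. They were HIST1H1B, HIST1H2AB, HIST1H2AG, HIST1H2AH, HIST1H2BD, HIST1H2BM, HIST2H2BE, HIST2H2BF and HIST2H3D, of which HIST1H2BD passed the filter through the resistant samples alone. The median log2 fold change was 0.51, against 0.12 over all genes, and 31 changes were positive, where 61% of all genes had a positive one, and 14 negative. In 11 members the resistant samples were all above the parental ones, against 24.9% of all genes. The calls rested on single libraries: 1 member was called higher without parental replicate 1, 3 without resistant replicate 3, 4 without resistant replicate 2 and 5 without parental replicate 2, and 10 and 13 without parental replicate 3 and resistant replicate 1. HIST1H1B was called in all 15 alternative settings and each of the other 8 lost its call in at least 1, among them that without parental replicate 1. Of the 14 with a negative change, 1, HIST1H4C, had an unadjusted p under 0.05, and limma-voom called 0 lower. With upper-quartile scaling 9 were called higher and 1, HIST1H4C, lower, and with median-ratio scaling 8 and 1.

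The 4 members called higher in both lines were HIST1H1B, HIST1H2AH, HIST1H2BM and HIST2H2BE, 12.5% of the Huh7 and 44.4% of the HepG2 calls. Of the 45 tested in both, 28 had a positive change in both and 14 a positive change in Huh7 with a negative one in HepG2.

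**Figure D2:**
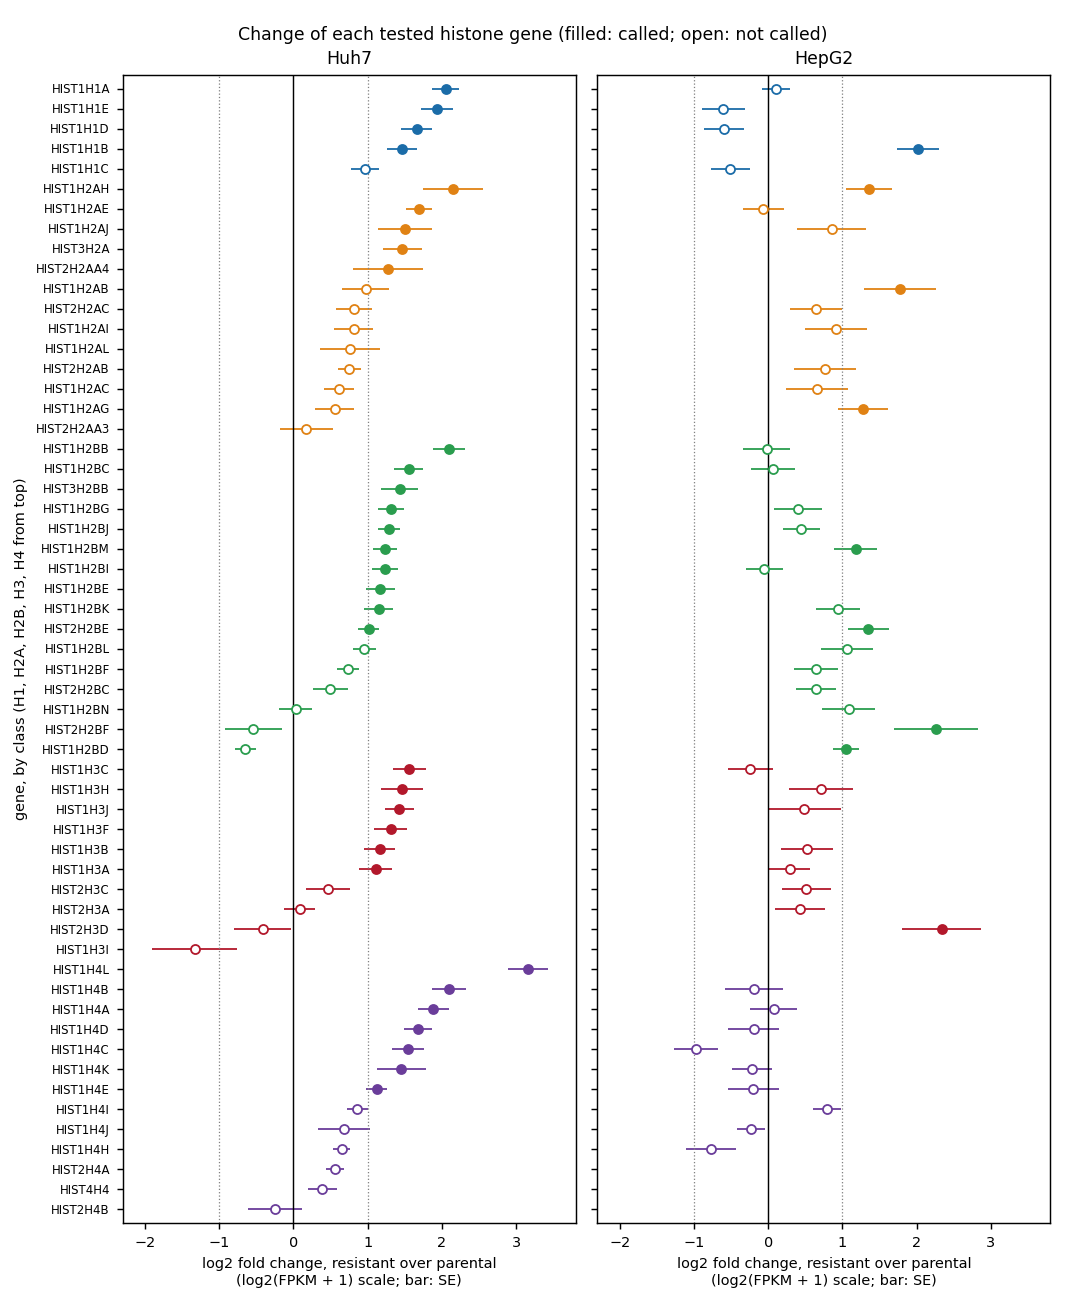
Log2 fold change of resistant over parental cells (x axis, log2(FPKM + 1) scale; bars are the SE) for the 57 tested members, by class and by the change in Huh7, in Huh7 (left) and HepG2 (right). Filled points are called. In Huh7 the points lie mostly right of 0, and in HepG2 those of most H4 and H1 genes lie at or left of 0.

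**Figure D3:**
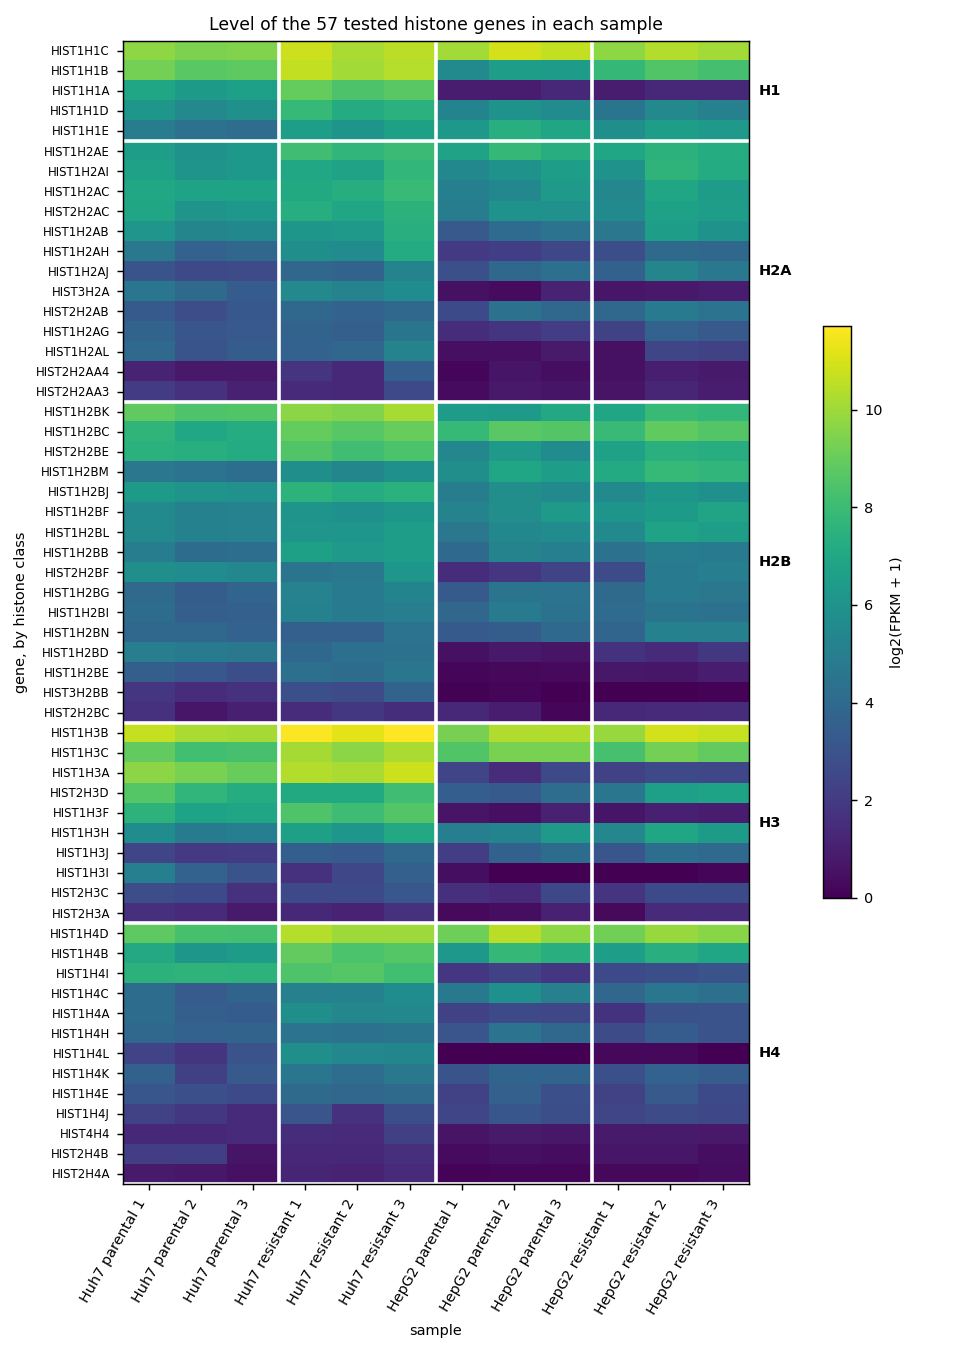
Level as log2(FPKM + 1) (colour) of the 57 tested members (rows, by class and mean level) in each of the 12 samples (columns). Blocks near 0 in the HepG2 columns, such as HIST1H4L and HIST1H3F, mark members that were high in Huh7 alone.

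Among the linker histones, HIST1H1B (H1.5; chr6:27866849-27867529) was called in both lines. Its level was 1598, 1074 and 1362 FPKM in resistant and 602, 419.6 and 442 FPKM in parental Huh7 samples (log2 fold change 1.46 ± 0.20 SE, adjusted p = 0.000323). In HepG2 it was 218, 366 and 307 against 47.1, 90.7 and 84.2 FPKM (log2 fold change 2.01 ± 0.28 SE, adjusted p = 0.00279), and the groups overlapped in neither line. The Huh7 call was lost after removal of the GC trend (0.92). HIST1H1A (H1.1; chr6:26017085-26017732) rose in Huh7 from 121, 82.9 and 96 to 493, 342 and 414 FPKM (log2 fold change 2.05 ± 0.18 SE, adjusted p = 5.00e-05). It was at 0.911, 1.52 and 1.43 FPKM in resistant and 0.940, 0.879 and 1.57 FPKM in parental HepG2 cells. HIST1H1A was thus near the detection filter in HepG2 and among the 100 most abundant genes in resistant Huh7 cells.

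HIST1H1D (H1.3) had 231, 147 and 176 FPKM in resistant and 72, 44.4 and 57 FPKM in parental Huh7 cells (log2 fold change 1.66 ± 0.21 SE, adjusted p = 0.000219), and 22.7, 43.9 and 33 against 37.6, 63.4 and 49.2 FPKM in HepG2 (-0.60, adjusted p = 0.143). HIST1H1E (H1.4) had 93.5, 65.9 and 101 against 29.4, 19.7 and 17.3 FPKM in Huh7 (log2 fold change 1.93 ± 0.22 SE, adjusted p = 0.000132). In HepG2, HIST1H1E had 56.1, 89.7 and 77.5 against 73.3, 159.6 and 119 FPKM (-0.60, adjusted p = 0.171). Both genes rose in Huh7 alone and their HepG2 groups overlapped. HIST1H1C (H1.2) was the most abundant H1 gene over the 12 samples, with 1789, 1196 and 1452 FPKM in resistant and 850.5, 676 and 726 FPKM in parental Huh7 cells. Its change of 0.96 (adjusted p = 0.00177, limma) was just short of the fold threshold although the groups did not overlap. The HepG2 values were 830.3, 1320.3 and 1073 against 1089, 1991 and 1567 FPKM (-0.51, adjusted p = 0.195).

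Of the H2A genes, whose product pairs with H2B at the outer face of the core, HIST1H2AH was called in both lines. It had 56.1, 48.9 and 145 against 24.3, 11.7 and 13.8 FPKM in Huh7 (log2 fold change 2.15 ± 0.41 SE, adjusted p = 0.00162), resistant replicate 3 being far above the other 2. In HepG2 it had 6.1, 15.4 and 14 against 2.95, 3.57 and 4.76 FPKM (log2 fold change 1.35 ± 0.31 SE, adjusted p = 0.0199). HIST1H2AE, the most abundant H2A gene, had 278, 207 and 249 against 90.7, 60.9 and 75.4 FPKM in Huh7 (log2 fold change 1.69 ± 0.17 SE, adjusted p = 8.60e-05). Its HepG2 values of 116, 180.0 and 150.2 against 105, 218 and 156 FPKM overlapped (-0.06, adjusted p = 0.887).

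HIST3H2A rose in Huh7 from 22.8, 15.6 and 9.54 to 44.2, 36.6 and 51 FPKM (log2 fold change 1.47 ± 0.27 SE, adjusted p = 0.00135) and had 0.273 to 1.28 FPKM in HepG2. HIST1H2AJ had 13.6, 12.1 and 36.6 against 7.34, 4.91 and 5.44 FPKM in Huh7 (log2 fold change 1.499 ± 0.36 SE, adjusted p = 0.00575) and 11.4, 39 and 25.1 against 6.3, 14.5 and 18.4 FPKM in HepG2 (0.85, adjusted p = 0.224). HIST2H2AA4 had 2.43, 1.47 and 10.3 against 1.19, 0.737 and 0.768 FPKM in Huh7 (log2 fold change 1.28 ± 0.48 SE, adjusted p = 0.0395), and this call was lost without resistant replicate 3 (0.63) and without any of the parental replicates. HIST1H2AJ shares 83.7% of its 50-base stretches with HIST1H2AI, and HIST2H2AA4 97.1% with HIST2H2AA3, so the split of reads between these copies is uncertain. HIST1H2AJ and HIST3H2A were not called after removal of the GC trend.

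HIST1H2AB and HIST1H2AG were called in HepG2 alone. HIST1H2AB had 23.6, 94.2 and 61.5 FPKM in resistant against 8.72, 16.1 and 21 FPKM in parental HepG2 cells (log2 fold change 1.77 ± 0.48 SE, adjusted p = 0.0355), and 72, 77.8 and 158 against 67.9, 38.5 and 43.3 FPKM in Huh7 (0.98, adjusted p = 0.0220). HIST1H2AG had 3.91, 12 and 8.75 against 1.86, 2.5 and 3.39 FPKM in HepG2 (log2 fold change 1.27 ± 0.34 SE, adjusted p = 0.0323) and 12.1, 10.7 and 22.6 against 12.2, 7.89 and 8.69 FPKM in Huh7 (0.56, adjusted p = 0.0897). The difference between the lines did not pass the test for either gene (interaction adjusted p = 0.339 and 0.240, limma). Both HepG2 calls were lost without parental replicate 1, where the changes were 1.44 and 1.12. The other 6 tested H2A genes had changes of 0.17 (HIST2H2AA3) to 0.82 (HIST2H2AC) in Huh7.

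H2B had the most members and the most calls. HIST2H2BE was called in both lines, with 364, 278 and 339 against 177, 159 and 146 FPKM in Huh7 (log2 fold change 1.02 ± 0.14 SE, adjusted p = 0.000346) and 102, 171 and 158 against 41.6, 78.9 and 49 FPKM in HepG2 (log2 fold change 1.35 ± 0.28 SE, adjusted p = 0.0129). The Huh7 change sat at the threshold of 1 and was not called without resistant replicate 1 (0.94), resistant replicate 3 (0.99) or parental replicate 3 (0.95). HIST1H2BM was also called in both, at 55.6, 40.7 and 56.7 against 24, 21 and 18 FPKM in Huh7 (log2 fold change 1.23 ± 0.16 SE, adjusted p = 0.000232). In HepG2, where it was more abundant, it had 142, 224 and 206 against 53.2, 115 and 90.4 FPKM (log2 fold change 1.18 ± 0.29 SE, adjusted p = 0.0255). For these genes the resistant samples lay above the parental ones in both lines. HIST1H2BM, HIST2H2BE, HIST1H2BI and HIST1H2BK were not called in Huh7 after removal of the GC trend.

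HIST1H2BK, the most abundant H2B gene, had 809, 712 and 1139 against 458, 352 and 372 FPKM in Huh7 (log2 fold change 1.15 ± 0.20 SE, adjusted p = 0.00103). Without resistant replicate 3, the highest sample, its change was 0.95 and not called. In the HepG2 samples its values were 119.8, 246 and 216 against 84.2, 80.5 and 131 FPKM (0.94, adjusted p = 0.0561). It shares 61.4% of its 50-base stretches with H2BFS, so reads of both copies may be mixed. HIST1H2BC had 486, 397 and 506 against 203, 125 and 150.3 FPKM in Huh7 (log2 fold change 1.55 ± 0.19 SE, adjusted p = 0.000189) and 238, 464 and 376 against 228, 418 and 378 FPKM in HepG2 (0.07, adjusted p = 0.892). HIST1H2BB had the largest H2B change in Huh7, 100.3, 80.4 and 93.5 against 29.7, 16.5 and 17.5 FPKM (log2 fold change 2.10 ± 0.21 SE, adjusted p = 8.04e-05), and 20.5, 29.7 and 28.2 against 14.8, 37.2 and 32.5 FPKM in HepG2 (-0.02, adjusted p = 0.966). HIST1H2BC and HIST1H2BB thus rose in Huh7, while their HepG2 groups overlapped.

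HIST1H2BJ had 185, 149 and 174 against 83.2, 64.6 and 59.6 FPKM in Huh7 (log2 fold change 1.29 ± 0.15 SE, adjusted p = 0.000157) and 45.5, 71.2 and 57.7 against 29.2, 53.4 and 46.6 FPKM in HepG2 (0.44, adjusted p = 0.236). HIST1H2BG had 35.8, 26.8 and 37.4 against 15.5, 10.0 and 13 FPKM in Huh7 (log2 fold change 1.32 ± 0.18 SE, adjusted p = 0.000297) and 15.6, 26.1 and 23.7 against 9.09, 21.3 and 20.6 FPKM in HepG2 (0.40, adjusted p = 0.407). HIST1H2BI had 34, 26.9 and 31.2 against 16.4, 10.6 and 11 FPKM in Huh7 (log2 fold change 1.23 ± 0.17 SE, adjusted p = 0.000321) and 16.3, 21.5 and 19.7 against 13.4, 28 and 20.5 FPKM in HepG2 (-0.05, adjusted p = 0.900). All 3 had resistant samples above the parental ones in Huh7 and overlapping groups in HepG2. HIST1H2BE and HIST3H2BB were low and tested in Huh7 alone. HIST1H2BE had 18.8, 16.8 and 23.3 against 10.8, 8.13 and 5.94 FPKM (log2 fold change 1.17 ± 0.20 SE, adjusted p = 0.000926), a change of 0.98, not called, without parental replicate 3. HIST3H2BB had 6.15, 5.57 and 12 against 2.59, 1.76 and 2.15 FPKM (log2 fold change 1.43 ± 0.25 SE, adjusted p = 0.00100).

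HIST1H2BD and HIST2H2BF went the other way between the lines. HIST1H2BD had 14.6, 18.5 and 19.7 FPKM in resistant and 30.7, 28.6 and 24.5 FPKM in parental Huh7 cells, all 3 resistant samples below the parental ones, with a change of -0.64 (adjusted p = 0.00329, limma) that was short of the fold threshold. In HepG2 it had 2.3, 1.7 and 2.74 against 0.437, 0.747 and 0.511 FPKM (log2 fold change 1.04 ± 0.17 SE, adjusted p = 0.00559). It passed the filter there through the resistant samples alone, so only a higher call was possible. The call was lost with median-ratio scaling (0.98), after removal of the GC trend (0.99) and without parental replicate 1 (0.99). HIST2H2BF had 21.5, 24.5 and 70.9 against 55.6, 50.3 and 42.8 FPKM in Huh7 (-0.54, adjusted p = 0.237), where resistant replicate 3 was above all parental samples and the other 2 below them. Without that replicate the change was -1.07 and called lower. In HepG2 HIST2H2BF had 5.34, 26.8 and 31.3 against 1.79, 2.57 and 4.24 FPKM (log2 fold change 2.26 ± 0.56 SE, adjusted p = 0.0266). Its gene model overlaps FCGR1A on the opposite strand, and whether reads were counted by strand is not given in the sources used here.

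HIST1H3B, the most abundant member (chr6:26031650-26032060), had 3131, 2351 and 3325 FPKM in resistant and 1625, 1199 and 1122 FPKM in parental Huh7 cells (log2 fold change 1.16 ± 0.21 SE, adjusted p = 0.00129). The HepG2 samples held 936, 1926 and 1658 against 628, 1276 and 1257 FPKM (0.52, adjusted p = 0.313). HIST1H3C had 1112, 822 and 1185 against 466, 288 and 312 FPKM in Huh7 (log2 fold change 1.56 ± 0.22 SE, adjusted p = 0.000357) and 314, 608 and 478 against 364, 642 and 643 FPKM in HepG2 (-0.24, adjusted p = 0.594). These 2 H3.1 genes rose in Huh7 and had overlapping HepG2 groups. HIST1H3A had 1301, 1173 and 1773 against 822, 643 and 509 FPKM in Huh7 (log2 fold change 1.11 ± 0.22 SE, adjusted p = 0.00231), not called without resistant replicate 3 (0.94) or parental replicate 3 (0.94). It had 3.88, 4.92 and 4.67 against 4.45, 1.78 and 4.95 FPKM in HepG2 (0.29, adjusted p = 0.486).

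HIST1H3F had 357, 271 and 379.8 against 187, 108 and 117 FPKM in Huh7 (log2 fold change 1.31 ± 0.22 SE, adjusted p = 0.000930) and at most 1.08 FPKM in any HepG2 sample. HIST1H3H had 100.3, 70.7 and 132 against 51.1, 26.4 and 31.2 FPKM in Huh7 (log2 fold change 1.46 ± 0.28 SE, adjusted p = 0.00167) and 41.2, 121 and 81.3 against 30.9, 37.6 and 76.9 FPKM in HepG2 (0.72, adjusted p = 0.264). HIST1H3J had 10.7, 8.83 and 14.3 against 4.53, 2.83 and 3.27 FPKM in Huh7 (log2 fold change 1.43 ± 0.19 SE, adjusted p = 0.000289) and 7.85, 17.8 and 14.8 against 3.34, 11.5 and 16.6 FPKM in HepG2 (0.48, adjusted p = 0.508). HIST1H3J overlaps HIST1H2AM on the same strand, and its reads may belong to either gene. HIST1H3A, HIST1H3B, HIST1H3F and HIST1H3J lost their Huh7 calls after removal of the GC trend.

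HIST2H3D, one of the genes for H3.2, was called in HepG2 alone. It had 23.3, 95.4 and 109.7 against 10.2, 8.91 and 17 FPKM there (log2 fold change 2.34 ± 0.53 SE, adjusted p = 0.0189), the largest change of a tested member in HepG2, followed by that of HIST2H2BF. In Huh7 it had 135, 135 and 278 against 387, 208 and 150.1 FPKM (-0.41, adjusted p = 0.349), with overlapping groups. In all, 80.4% of its 50-base stretches also occur in other genes, so its reads are uncertain. HIST1H3I had 2.18, 4.67 and 11.1 against 32.5, 11.8 and 7.08 FPKM in Huh7 (log2 fold change -1.33 ± 0.58 SE, adjusted p = 0.0675), where parental replicate 1 stood far above the other 2. It was called lower without resistant replicate 3 (-1.84) and without parental replicate 3 (-1.78). HIST2H3A and HIST2H3C, identical over all their 50-base stretches, had changes of 0.09 and 0.46 in Huh7 and 0.43 and 0.51 in HepG2.

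The H4 genes nearly all encode the same protein. HIST1H4D, the most abundant, had 1340.2, 1004 and 1022 against 439, 309 and 306 FPKM in Huh7 (log2 fold change 1.68 ± 0.19 SE, adjusted p = 0.000135) and 591, 960.4 and 783 against 549.7, 1435 and 851 FPKM in HepG2 (-0.20, adjusted p = 0.703). HIST1H4B had 477, 338 and 386 against 131, 71.2 and 84.2 FPKM in Huh7 (log2 fold change 2.09 ± 0.23 SE, adjusted p = 0.000116) and 91.5, 166 and 119.7 against 74.2, 224 and 163 FPKM in HepG2 (-0.19, adjusted p = 0.755). HIST1H4L (chr6:27873199-27873510) had the largest change of all members in Huh7, 55.9, 43.2 and 40.6 against 4.29, 2.47 and 6.94 FPKM (log2 fold change 3.16 ± 0.27 SE, adjusted p = 4.48e-05). None of the 6 HepG2 samples had more than 1 read of it. In resistant cells it had 832 reads over the 3 Huh7 samples and 2 over the 3 HepG2 samples, a depth-scaled ratio of 381 with an exact 95% interval of 105 to 3150. This interval covers counting error only.

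HIST1H4A had 56.6, 41.5 and 43.5 against 16.6, 10.7 and 9.52 FPKM in Huh7 (log2 fold change 1.89 ± 0.20 SE, adjusted p = 0.000110) and 2.27, 6.49 and 6.89 against 3.91, 4.95 and 4.69 FPKM in HepG2 (0.07, adjusted p = 0.889). HIST1H4C had 33.2, 34.3 and 50.1 against 16.5, 9.42 and 12.7 FPKM in Huh7 (log2 fold change 1.54 ± 0.22 SE, adjusted p = 0.000349). In HepG2 it had 13.7, 23.1 and 19.1 against 25.9, 58 and 32.9 FPKM, the 3 resistant samples all lower, but its change of -0.97 missed the threshold (adjusted p = 0.0531, limma). With upper-quartile scaling (-1.04), with median-ratio scaling (-1.08) and without parental replicate 1 (-1.22) it was called lower. HIST1H4C and HIST1H2BD were thus the members whose groups were apart in opposite directions in the 2 lines.

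HIST1H4K had 23, 17 and 25 against 11.4, 3.62 and 8.53 FPKM in Huh7 (log2 fold change 1.45 ± 0.33 SE, adjusted p = 0.00418) and 6.25, 11.9 and 9.68 against 7.32, 12.8 and 12.8 FPKM in HepG2 (-0.22, adjusted p = 0.582). All of its 50-base stretches also occur in HIST1H4J, so the split between these is uncertain, and its call was lost after removal of the GC trend. HIST1H4E had 15.7, 13.4 and 15.6 against 7.65, 6.27 and 5.16 FPKM in Huh7 (log2 fold change 1.12 ± 0.14 SE, adjusted p = 0.000214) and 3.85, 8.5 and 5.2 against 3.99, 11 and 6.24 FPKM in HepG2 (-0.20, adjusted p = 0.703). HIST1H4I had 361, 389 and 285 against 183, 192 and 188 FPKM in Huh7 (0.86, adjusted p = 0.000765) and 5.02, 5.96 and 6.92 against 2.59, 4.02 and 2.55 FPKM in HepG2 (0.79, adjusted p = 0.0218). Among H4 genes tested in both lines it was the 1 whose resistant samples lay above the parental ones in both, with changes under the fold threshold. HIST1H4H had 21.1, 19.5 and 21.9 against 14.7, 11.9 and 12.3 FPKM in Huh7 (0.65, adjusted p = 0.00106) and 5.62, 9.51 and 7.01 against 7.36, 21.3 and 13.9 FPKM in HepG2 (-0.77, adjusted p = 0.137). Of the 9 H4 genes tested in HepG2, 7 had a negative change.

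Whether resistance was accompanied by a different change in the 2 lines was tested with the interaction of line and resistance in all 12 samples, called at adjusted p under 0.05 (limma). Of 57 tested members, 23 had a more positive change in Huh7 and 3 a more positive change in HepG2, where 23.1% and 33.2% of 13800 genes were called in these directions, 56.3% in all. The first group held 9 of 13 H4 genes and 4 of 5 H1 genes, but 2 of 13 H2A, 6 of 16 H2B and 2 of 10 H3 genes. The largest differences of log2 change, Huh7 minus HepG2, were 3.00 ± 0.34 for HIST1H4L (adjusted p = 4.24e-05), 2.54 ± 0.42 for HIST1H1E and 2.51 ± 0.42 for HIST1H4C. That of HIST1H4L is mostly its Huh7 change of 3.16, since no HepG2 sample had more than 1 read of it. HIST1H4L, HIST3H2A, HIST3H2BB, HIST1H2BE, HIST1H3F and HIST2H4A were under the filter in HepG2, where a change could hardly be measured. The 3 in the other direction were HIST1H2BD (-1.69 ± 0.22, adjusted p = 9.85e-05), HIST2H2BF (-2.80 ± 0.82, adjusted p = 0.0126) and HIST2H3D (-2.75 ± 0.78, adjusted p = 0.0106). The medians were 0.64 for members and -0.15 for all genes, and with median-ratio scaling 0.83 and -0.03.

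The parental lines already differed in which histone genes were used. Of 54 members tested, 22 were called higher in parental Huh7 and 7 higher in parental HepG2 cells, where 19.4% and 12.5% of 12796 genes were called. The 22 include HIST1H2AL, HIST1H2BD, HIST1H2BE, HIST1H3I, HIST1H4L, HIST2H2AA3 and HIST3H2BB, which passed the filter through Huh7 alone. A call of these genes could thus only be higher in Huh7. Of the 54, 33 had a positive difference, against 57.8% of all genes. The median log2 difference, Huh7 minus HepG2, was 0.44 over the members and 0.19 over all genes, which becomes 0.05 over all genes with median-ratio scaling. HIST1H3A had the largest difference, with 822, 643 and 509 FPKM in parental Huh7 against 4.45, 1.78 and 4.95 in parental HepG2 cells (7.17 ± 0.30 SE, adjusted p = 5.50e-07). HIST1H3F had 187, 108 and 117 against 0.556, 0.396 and 1.08 FPKM (6.34 ± 0.24), HIST1H1A differed by 5.56 ± 0.19 and HIST1H4I by 5.56 ± 0.16. HIST1H3B, in contrast, had a difference of 0.37 (adjusted p = 0.322), so the H3 gene that leads both lines did not pass the test while others of its class were nearly absent from HepG2.

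Other members higher in parental Huh7 cells were HIST1H2BD (4.21), HIST2H3D (4.19), HIST1H3I (3.77), HIST2H2BF (3.75), HIST3H2A (3.32), HIST1H2BE (2.94), HIST1H2AL (2.88), HIST1H1B (2.74), HIST1H4L (2.40) and HIST1H2BK (2.02). The remaining 8, HIST1H2AH, HIST1H2AB, HIST3H2BB, HIST1H2AG, HIST2H2BE, HIST1H4A, HIST1H2AC and HIST2H2AA3, differed by 1.01 to 1.83. HIST1H3I had 369 reads over the parental Huh7 samples and 2 over the parental HepG2 samples, a depth-scaled ratio of 149 (exact 95% interval 41 to 1235). HIST3H2BB had 262 and 4 reads, a ratio of 52.9 (20.4 to 196). HIST1H4L had no read in parental HepG2 cells, and its mean level in parental Huh7 was at least 6.45-fold higher, taking 3 reads in each HepG2 library as the floor. Called higher in parental HepG2 cells were HIST1H1E (-2.32), HIST1H2BM (-1.93), HIST1H4C (-1.48), HIST1H4D (-1.34), HIST1H2BC (-1.08), HIST1H2AE (-1.02) and HIST1H1C (-1.01). HIST1H2BD, HIST2H2BF and HIST2H3D, which rose in HepG2 alone, were thus among the genes that parental HepG2 cells had at lower levels than parental Huh7 cells. Both comparisons share the parental HepG2 samples, so low values there move a gene towards both calls. HIST1H2BM, also called higher in resistant HepG2 cells, was instead higher in parental HepG2. Without parental Huh7 replicate 2 the members called fell in number to 19, and without the others 21 to 32 were called. Leaving out any parental Huh7 sample also cut the members tested from 54 to 44 or 45. HIST1H2AL, HIST1H2BD, HIST1H2BE, HIST1H3I, HIST1H4L, HIST2H2AA3 and HIST3H2BB were then not tested, as they passed the filter through Huh7 alone. That part of the fall comes from the filter. HIST1H2AL, which was not called within a line, had 14.9, 7.1 and 9.92 FPKM in parental Huh7 and 0.388, 0.414 and 0.809 FPKM in parental HepG2 cells, and overlaps HIST1H2BN on the same strand.

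**Figure D4:**
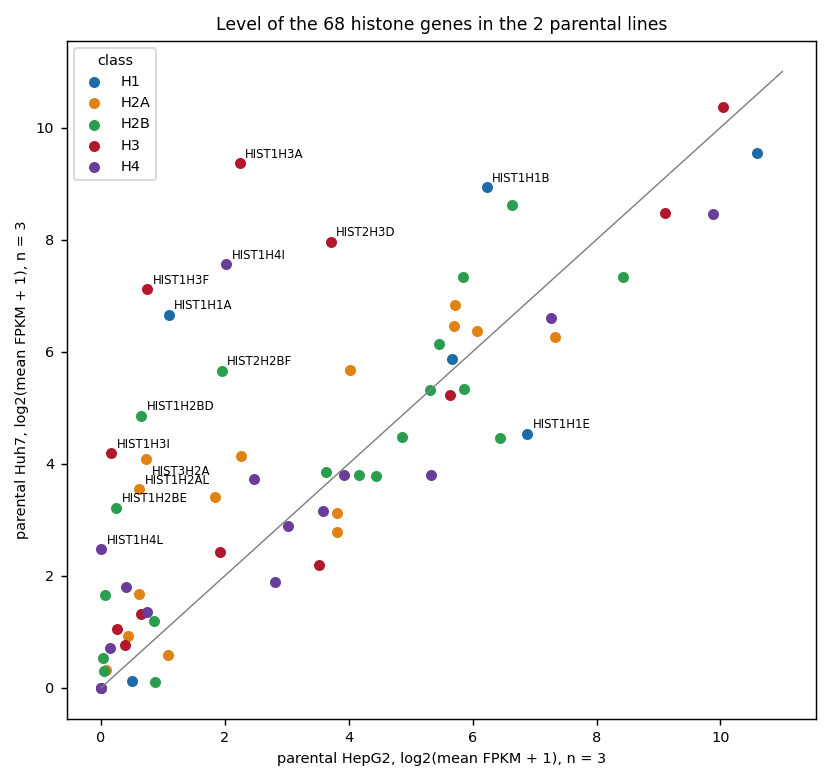
Mean level of the 68 members in parental Huh7 (y axis) against parental HepG2 cells (x axis), both as log2(mean FPKM + 1) of 3 samples, coloured by class, with the line of equal level. HIST1H3A, HIST1H4I, HIST1H3F and HIST1H1A lie far above the line, and HIST1H1E lies below it.

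Histone genes varied more between samples of a group than other genes did, and they varied together. Over members with a group mean of at least 10 FPKM, the median coefficient of variation was 17.9% in resistant Huh7, 23.9% in parental Huh7, 31.6% in resistant HepG2 and 36.2% in parental HepG2 cells, against 10.3%, 11.3%, 12.6% and 16.6% over all genes at that level. Resistant HepG2 replicate 1 was the lowest sample of its group in 32 of 32 such members, and parental HepG2 replicate 1 in 30 of 32. In Huh7, parental replicate 1 was the highest in 38 of 39 members and resistant replicate 2 the lowest in 37 of 46. A single high or low library thus moved nearly the whole list in its group, and members are not independent of each other. Without replicate 1 of both HepG2 groups, a choice made after the data had been seen, 12 members were called higher and 0 lower in HepG2.

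Histone genes are short and rich in GC, and in Huh7 the change of all genes followed GC content. The members' transcripts had a median GC content of 57.2% (39.5% to 67.4%, 67 members with a model), against 46.7% for the genes tested in Huh7. Among members with 55 to 65% GC, 19 of 31 were called higher in Huh7 with a median change of 1.23, while 19.7% of the 2652 other genes in that range were called higher with a median of 0.53. At 45 to 55% GC it was 13 of 19 members with a median of 1.29, against 9.72% of 4148 others with a median of 0.21. Under 45% GC, 0 of 5 members were called higher, against 1.53% of 5415 others, whose median was -0.61. Among genes with a single exon of up to 1000 bases, 23 of 34 members were called higher, against 5.59% of 1377 others, with a median of -0.52. In HepG2, 5 of 27 members of this kind were called higher with a median of 0.11, against 7.62% of 1286 others with a median of 0.34. In HepG2 the medians of other genes were 0.16 at 55 to 65% GC and 0.08 at 45 to 55% GC.

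**Figure D5:**
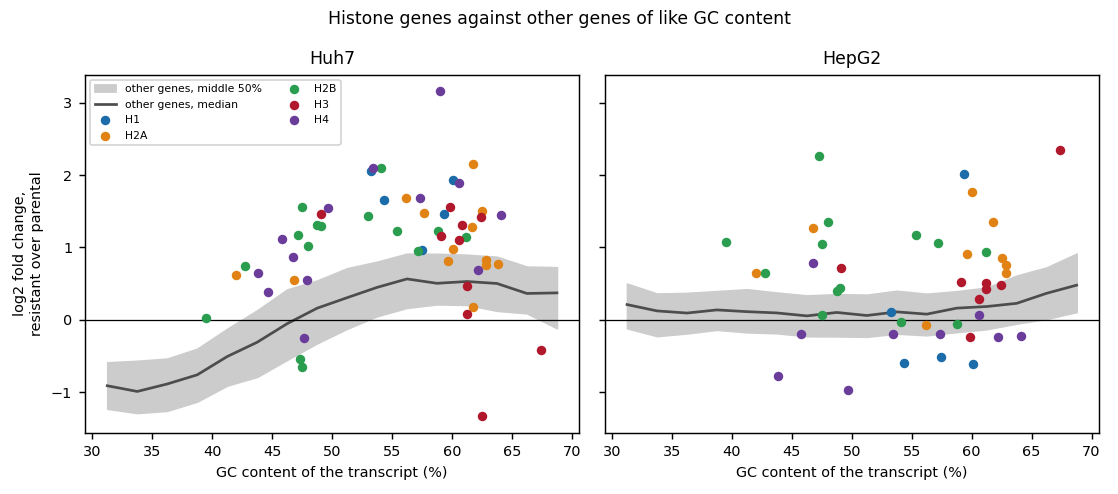
Log2 fold change of resistant over parental cells (y axis) against the GC content of the transcript (x axis, percent) in Huh7 (left) and HepG2 (right). Coloured points are tested members by class, and the line and band are the median and middle 50% of other genes in bins of 2.5 percentage points. In Huh7 the line rises with GC content and most members lie above it. In HepG2 the line is nearly flat up to 60% GC and then rises, to 0.48 in the last bin.

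RNU1-1 and RNU5A-1, which have no poly(A) tail, had positive changes in Huh7, where all 5 class sums were higher in resistant cells. In HepG2 their changes were negative. There the H1 and H4 sums had ratios of 0.826 and 0.813, but the H2A, H2B and H3 sums 1.52, 1.54 and 1.28. The ratio over all members was 1.10. Of a list of 18 RNAs without a poly(A) tail, 4 were measured. The U1 spliceosomal RNA RNU1-1 had 26.7, 11.4 and 16.4 FPKM in resistant against 3.74, 3.26 and 3.02 in parental Huh7 cells (log2 fold change 2.07 ± 0.26 SE, adjusted p = 0.000189), and 4.32, 7 and 8.15 against 12.1, 23.3 and 10.5 FPKM in HepG2 (log2 fold change -1.08 ± 0.31 SE, adjusted p = 0.0425). The U5 RNA RNU5A-1 had 26.4, 21.5 and 16.3 against 9.13, 5.12 and 8 FPKM in Huh7 (log2 fold change 1.42 ± 0.22 SE, adjusted p = 0.000586) and 3.05, 2.36 and 0 against 1.97, 2.81 and 3.84 FPKM in HepG2 (-0.67, adjusted p = 0.347). The Y RNA RNY1 averaged 1.69 against 0.854 FPKM in Huh7 (0.59, adjusted p = 0.169), and SCARNA10 was not tested. Whether RNA with poly(A) tails was selected is not given in the sources used here, and the part of library preparation in the histone changes was not tested.

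Replication-independent histones had 1 call in each line. Of 9 tested in Huh7, 1 was called higher and 0 lower, where 8.59% of all genes tested were called higher and 14% lower. Their median change was 0.24, and after removal of the GC trend 0 were called. Of 8 in HepG2, 1 was called higher and 0 lower, where 3.29% of all genes were called higher and 2.98% lower. The HepG2 median was 0.17. H1FX, the partner of the H1 class, had 7.52, 6.43 and 10.5 against 3.59, 2.64 and 1.68 FPKM in Huh7 (log2 fold change 1.34 ± 0.22 SE, adjusted p = 0.000824) and 7.72, 14.2 and 9.87 against 11, 11 and 8.65 FPKM in HepG2 (0.02, adjusted p = 0.956). H2AFX, which marks DNA breaks when phosphorylated, had 39.1, 60.7 and 50.7 against 12.5, 21.8 and 21.5 FPKM in HepG2 (log2 fold change 1.40 ± 0.24 SE, adjusted p = 0.00713) and 82.7, 63.9 and 82.1 against 49.9, 40.5 and 31.2 FPKM in Huh7 (0.91, adjusted p = 0.00214). H3F3A had 45.8, 50.2 and 48 against 45.3, 35.8 and 41.2 FPKM in Huh7 (0.24, adjusted p = 0.0982) and 24.3, 28.9 and 26.2 against 23.1, 24.1 and 25.7 FPKM in HepG2 (0.11, adjusted p = 0.562). H3F3B, the other H3.3 gene, had 48.9, 60.3 and 48.6 against 47.6, 42.8 and 44.5 FPKM in Huh7 (0.21, adjusted p = 0.136) and 56.8, 52.1 and 52.7 against 79.8, 94.7 and 79.7 FPKM in HepG2 (-0.64, adjusted p = 0.0148). H2AFZ had at most 1.52 FPKM in any sample. H2BFS, listed here as the H2B partner and sharing 50-base stretches with HIST1H2BK, averaged at most 0.570 FPKM. Whether the counting of reads lowered these values was not tested.

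Factors that make and degrade histone mRNA were not called higher with the histone genes in Huh7. Of 22 tested in each line, 0 were called higher and 6 lower in Huh7, and 1 higher and 0 lower in HepG2, with 8 higher in Huh7 and 0 lower in HepG2 at an unadjusted p under 0.05 (limma). Over all genes tested, 8.59% were called higher and 14% lower in Huh7, and 3.29% and 2.98% in HepG2. After removal of the GC trend 0 of the 22 were called in either direction in Huh7, so the Huh7 calls of these factors depend on that setting. NPAT, the activator of the histone clusters, had 3.41, 3.11 and 2.73 FPKM in resistant against 8, 10.5 and 12.7 FPKM in parental Huh7 cells (log2 fold change -1.46 ± 0.16 SE, adjusted p = 0.000116) and 9.60, 5.87 and 6.97 against 5.26, 3.64 and 5.7 FPKM in HepG2 (0.53, adjusted p = 0.110). The other 5 that fell in Huh7 were CASP8AP2 (-1.53), also called FLASH, a 3′-end processing factor, CPSF2 (-1.42), a subunit of the cleavage complex, ERI1 (-1.12), an exonuclease that trims the stem-loop end, and the terminal uridylyltransferases ZCCHC6 (-1.22) and ZCCHC11 (-1.003). SLBP rose in HepG2, with 37.5, 42.3 and 39.4 against 14.7, 17.7 and 20.4 FPKM (log2 fold change 1.14 ± 0.15 SE, adjusted p = 0.00230), and had 64.2, 75 and 70.5 against 51.8, 48.7 and 51 FPKM in Huh7 (0.46, adjusted p = 0.00411).

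Of the histone chaperones, 22 were tested in each line. In Huh7 2 were called higher and 2 lower, where 8.59% and 14% of all genes were. In HepG2 1 was called higher and 0 lower, where 3.29% and 2.98% of all genes were. CHAF1B, a subunit of the CAF-1 complex that places new H3 and H4 behind the replication fork, rose in Huh7 (1.24, adjusted p = 3.50e-05) and in HepG2 (1.11, adjusted p = 0.00425). HIRA, which places H3.3, rose in Huh7 (1.01, adjusted p = 0.000248), where ATRX (-1.66, adjusted p = 0.000388) and MMS22L (-1.24, adjusted p = 0.000110) fell. No other chaperone was called in either line. After removal of the GC trend 2 were called higher and 0 lower in Huh7.

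S phase genes, unlike the histone genes, had more calls in HepG2 than in Huh7. Of 34 tested in each line, 5 were called higher in Huh7 (CCNE1, E2F2, MCM2, MCM5 and MCM7) and 8 in HepG2 (MCM2, MCM4, MCM5, MCM6, PCNA, CDC6, FEN1 and RFC3), with 0 lower in either (2 and 1 lower at an unadjusted p under 0.05). Over all genes tested, 8.59% were called higher in Huh7 and 3.29% in HepG2, with 14% and 2.98% lower. After removal of the GC trend 1 of the 34 was called higher in Huh7 and 4 in HepG2. The median change was 0.34 in Huh7 and 0.84 in HepG2. By the interaction, 3 of the 34 had a more positive change in Huh7 and 14 in HepG2, where 23.1% and 33.2% of all genes were called in these directions. MCM2, a subunit of the replicative helicase, had 88.3, 63.8 and 83 against 40.6, 33.6 and 28.7 FPKM in Huh7 (log2 fold change 1.17 ± 0.17 SE, adjusted p = 0.000363) and 31.5, 42.6 and 40.7 against 14.2, 19.4 and 17.7 FPKM in HepG2 (log2 fold change 1.12 ± 0.17 SE, adjusted p = 0.00436). PCNA, the sliding clamp of the polymerase, averaged 277 against 221 FPKM in Huh7 (0.32, adjusted p = 0.0386) and 395 against 175 FPKM in HepG2 (1.18, adjusted p = 0.00108). CCNE1, the cyclin that starts S phase with CDK2, averaged 8.36 against 3.66 FPKM in Huh7 (1.01, adjusted p = 0.000203) and 9.13 against 4.47 FPKM in HepG2 (0.91, adjusted p = 0.0125).

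Among the 60 members matched to a promoter, the H2A and H2B genes formed 9 head-to-head pairs whose starts lay 215 to 248 bases apart, each pair sharing 1 promoter region. HIST1H2AH had no matched promoter, so its place beside HIST1H2BK, on the opposite strand, was not searched. HIST1H2AH and HIST1H2BK were each called higher in Huh7. In Huh7 both genes were called higher in the pairs HIST1H2AJ with HIST1H2BM, HIST1H2BG with HIST1H2AE and HIST3H2A with HIST3H2BB. A single gene was called in the pairs HIST1H2BC with HIST1H2AC (1.55 and 0.62), HIST1H2BJ with HIST1H2AG (1.29 and 0.56) and HIST2H2BE with HIST2H2AC (1.02 and 0.82), the H2B gene each time. In HepG2 the call in the second of these pairs was on the other gene, HIST1H2AG (1.27), with 0.44 for HIST1H2BJ. Of the H2A and H2B genes tested in Huh7 and matched to a promoter, 11 of 19 with the octamer and 3 of 8 without it were called higher. For HepG2 these were 5 of 17 (median 0.65) and 1 of 4 (median 1.05).

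By cluster, 28 of 42 tested HIST1 genes, 2 of 12 HIST2 genes and 2 of 2 HIST3 genes were called higher in Huh7. In HepG2, 6 of 37 HIST1 genes (median 0.40) and 3 of 8 HIST2 genes (median 0.70) were. The HIST2 cluster holds most of the near-identical copies, and the 22 tested members that share no 50-base stretch with another gene had 18 calls and a median change of 1.46, against 4 calls and a median of 0.62 in the 12 that share over 50%. In HepG2 the same sets had 3 calls of 19 (median -0.02) and 1 of 8 (median 0.68). The members whose model ends at the stop codon had 18 calls of 25 in Huh7 (median 1.31), and those whose model goes on past it 14 of 31 (median 0.86). For HepG2 these were 5 of 21 (median 0.48) and 4 of 23 (median 0.51).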

How the data were processed

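RNA of 12 samples was analysed, with 3 in each of 4 groups named by the labels. The deposited values carry no unit. In single-exon genes at least 99.5% of values of up to 2000 reads, times transcript length, gave whole reads within 0.05, so they are called FPKM as deposited by the authors. The labels and the methods of the study name different RNA kits. The submitters' processing notes name GRCh38 and bcl2fastq, and the aligner and counter are not given in the sources used here.

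Lengths, GC content and stop codons came from GENCODE release 29. R 4.3.3 with limma 3.58.1 fitted log2(FPKM + 1) with a trend on mean expression over every gene that reached 1 FPKM in 3 or more samples of the comparison, with Benjamini-Hochberg adjustment. Calls needed an adjusted p under 0.05 and a log2 fold change beyond 1, and for the interaction only the former. Replicate numbers were not taken as pairs in the main fit. Same-number correlations were 0.08, 0.06 and -0.23 in Huh7 and 0.25, 0.44 and -0.01 in HepG2. Tables were handled in Python (version 3.11.15). The fit was tested on simulated data.

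Members called in either line, by the interaction or between the parental lines, the most abundant member of each class and its replication-independent partners were named. The members and all lists were chosen with earlier results of these data known. The 3-read floor and the ratio intervals (exact Clopper-Pearson) cover counting error only, as no source used here names molecular identifiers. Alternatives were another pseudocount, no filter, upper-quartile and median-ratio scaling, a fit with each library's GC trend taken out (lowess, span 0.3), limma-voom on reads, 1 fit of all 12 samples, replicate number as a blocking factor and leaving out each sample. A further alternative without replicate 1 of both HepG2 groups was chosen after seeing the data.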

Additional observations from a re-analysis of the deposited data

Results flagged for a closer look

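For 26 members the change with resistance differed between the lines by the interaction test (limma, adjusted p under 0.05). Given as the log2 change in Huh7 minus that in HepG2, the differences were 1.94 for HIST1H1A, 1.47 for HIST1H1C, 2.26 for HIST1H1D and 2.54 for HIST1H1E among the H1 genes. In H2A they were 1.75 for HIST1H2AE and 1.33 for HIST3H2A. In H2B they were 2.12 for HIST1H2BB, 1.49 for HIST1H2BC, 1.29 for HIST1H2BI, 0.84 for HIST1H2BJ and 1.44 for HIST3H2BB, along with 0.64 for HIST1H2BE. In H3 they were 1.80 for HIST1H3C and 1.18 for HIST1H3F. In H4 they were 1.81 for HIST1H4A, 2.28 for HIST1H4B, 2.51 for HIST1H4C, 1.88 for HIST1H4D, 1.32 for HIST1H4E, 1.42 for HIST1H4H, 1.67 for HIST1H4K and 3.00 for HIST1H4L, along with 0.40 for HIST2H4A. Differences below 0 were -1.69 for HIST1H2BD, -2.80 for HIST2H2BF and -2.75 for HIST2H3D. HIST3H2A, HIST3H2BB, HIST1H2BE, HIST1H3F, HIST1H4L and HIST2H4A were under the filter in HepG2, and the difference for HIST1H2BE, at 0.64, was well short of its Huh7 change of 1.17. Some calls were not stable: that of HIST2H4A was kept in 7 of 16 settings, with 0.04 by limma-voom (adjusted p = 0.957) and an adjusted p of 0.0793 with the replicate block (limma), that of HIST1H2BJ in 10 of 19 and that of HIST1H2BE in 5 of 19. Over all 13800 genes tested, 56.3% were called by the interaction.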

How the results depend on the processing

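In Huh7, 18 of the 32 calls held in every setting, in HepG2 1 of 9, by the interaction 19 of 26 and between the parental lines 23 of 29. Settings in which a member was not tested were not counted. With the GC trend removed, 21 members were called higher and 1 lower in Huh7 (median 0.87), and 1 lower in HepG2. In Huh7, limma-voom and the fit of all 12 samples also called 1 lower. With no filter on low values 2 were called higher in HepG2, and upper-quartile and median-ratio scaling each called 1 lower there. The causes were not tested. The interaction of HIST1H2BE was reversed to -0.26 with a pseudocount of 0.1 and to -0.70 with limma-voom.

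Leaving out each sample gave 28 to 37 members called higher and 0 to 2 lower in Huh7 (median 1.00 to 1.28), 1 to 13 higher and 0 to 2 lower in HepG2 (median 0.28 to 0.79), 23 to 27 by the interaction and 19 to 32 between the parental lines. Between the parental lines, fewer members passed the filter without a parental Huh7 sample. Whether the numbers shared by samples pair them is not settled. Same-number correlations in HepG2 were 0.25, 0.44 and -0.01. Across numbers they ranged from -0.42 to 0.21 in HepG2 and from -0.33 to 0.28 in Huh7. With the replicate block 32 were called higher in Huh7 and 11 in HepG2, 28 by the interaction and 30 between the parental lines. In HepG2, 25 members had a limma adjusted p under 0.05 with the block and 10 without it. Over all HepG2 genes tested it was 3418 and 2357, and in Huh7 44 members either way.

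Over all genes tested, those called higher and lower in Huh7 numbered 1079 and 1759, 1581 and 2606 with a pseudocount of 0.1, 703 and 787 with the GC trend removed, and 1427 and 2849 with limma-voom. In HepG2 they numbered 387 and 350, 612 and 489 with the pseudocount of 0.1, 685 and 492 with limma-voom, and 285 and 429 with median-ratio scaling. Identical copies, 3 samples a group and a depth at which low members have few reads limit what single genes can show.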

Other observations

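The members under the filter in both lines include the pair of testis-type genes HIST1H2AA and HIST1H2BA, whose starts face each other. HIST1H2AA had 0.962, 1.44 and 0.963 FPKM in parental and 0, 0 and 0.293 FPKM in resistant HepG2 cells, and 0.281, 0.899 and 0.313 and 0.133, 0.131 and 0 FPKM in Huh7. HIST1H2BA had 0.148, 1.1 and 1.23 FPKM in parental and 0, 0.106 and 0 FPKM in resistant HepG2 cells. All parental HepG2 samples were thus above the resistant ones for both genes, at a few reads per sample and with no test.

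Some members lay just under the fold threshold in Huh7 with an adjusted p under 0.05 (limma). HIST1H2BL had 67.7, 69.7 and 89.9 FPKM in resistant and 45.4, 34.8 and 35.5 FPKM in parental Huh7 cells (0.95, adjusted p = 0.000668), and 47.7, 108 and 92.6 against 24, 42.5 and 49.6 FPKM in HepG2 (1.06, adjusted p = 0.0651). HIST2H2AB had 14.6, 12 and 14.1 against 8.93, 5.89 and 8.35 FPKM in Huh7 (0.75, adjusted p = 0.00258), and overlaps BOLA1 on the opposite strand. HIST1H2BF had 66.5, 57.8 and 72.7 against 47.8, 34.3 and 35.4 FPKM in Huh7 (0.74, adjusted p = 0.00254). HIST1H2BN, in contrast, had 11.2, 11.1 and 20.8 against 14.5, 14.3 and 11.7 FPKM in Huh7 (0.03, adjusted p = 0.906) and 13.1, 34.5 and 32.8 against 9, 9.95 and 15.2 FPKM in HepG2 (1.08, adjusted p = 0.0649). In HepG2 both HIST1H2BL and HIST1H2BN were called higher with the replicate block (adjusted p = 0.00478 and 0.0205, limma), by limma-voom (0.0197 and 0.0161) and in the fit of all 12 samples (0.0195 and 0.0283).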
